A study of Mus musculus with 36 samples.

Results

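The genes described here are 7 acute-phase and antimicrobial genes, Lcn2, Hp, Saa3, S100a8, S100a9, Slpi and Ltf, picked by symbol from the 19879 genes listed in the deposited tables. They encode secreted or cytosolic proteins that bind iron, hemoglobin, lipids, metal ions or proteases. The set was drawn up because Lcn2 was among the largest rises after LPS at 24 h and because S100a8 rose and Hp fell with DMF on top of LPS at 24 h, so those 24 h contrasts are given below as values with no test. The libraries with LPS, DMSO and EtOH at 24 h were thus used for Lcn2, and those with LPS and with LPS and DMF at 24 h for S100a8 and Hp, and other comparisons of these 3 genes that reuse 24 h libraries of those groups are also given as values, with errors and no p. A mean of at least 10 normalized counts in at least 1 group was reached by 5 of the 7, Lcn2, Hp, Saa3, S100a8 and Slpi. S100a9 and Ltf had next to no reads.

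The 36 RNA-seq libraries, in 12 groups of 3, were made from BV-2, a mouse microglial line that was immortalised and is labelled Wild-type. Cells received DMSO or EtOH (ethanol) alone, lipopolysaccharide (LPS, a bacterial wall component that activates microglia) alone, or LPS together with 1 of the 3 drugs DMF (dimethyl fumarate), MMF (monomethyl fumarate) and CBD (cannabidiol), for 4 h or 24 h. LPS was at 600 ng/ml in the LPS groups, DMF and MMF were at 30 µM from stocks in DMSO, CBD was at 6 µM from a stock in EtOH, and the vehicle made up 0.2% of the medium in treated cells. MMF is DMF with 1 of its methyl esters removed. No library had a drug without LPS. Medium serum was lowered just before treatment in the LPS experiments, and the labels do not say which vehicle the cells with LPS alone received, so that drug and vehicle cannot be told apart where a drug is set against LPS alone. Libraries with LPS are numbered 1 to 3 and vehicle libraries 4 to 6. The study repeated each experiment 3 times in 1 cell line, and the labels do not say that the libraries came from separate cultures, so the p-values below measure the spread between these libraries.

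Libraries held between 14110424 and 26676607 reads assigned to genes. Microglial identity was checked with 12 marker genes, of which 10 had a mean of at least 10 normalized counts, among them Csf1r, Spi1 and Cd68, while Fcrls and Sall1 were not listed. Neutrophils are a main source of several of the 7 genes in tissue, and of 12 markers of neutrophils and their precursors 5 had a mean of at least 10, namely Cebpe, Cxcr2, Prtn3, Mmp8 and Camp. Of the defining ones, Ly6g (mean 5.21), Mpo (4.68), Elane (1.75) and Ngp (1.37) stayed low and Retnlg was not listed. Over the 36 libraries Cxcr2 (mean 416), Cebpe (367) and Prtn3 (102) made up most of the summed neutrophil markers. That sum was between 463 and 952 normalized counts in the libraries of the 4 h groups. At 24 h it was between 1167 and 1711, except with LPS and CBD, where the libraries had 518 to 581. Astrocyte markers with a mean of 10 were 0 of 5, and neuronal ones 1 of 4 (Map2). In bulk RNA, fewer cells with a transcript and less transcript per cell cannot be told apart.

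As background, the acute-phase response is the change in secreted proteins that follows infection or injury. Interleukin 6 and interleukin 1 are its classic inducers, and NF-kB, STAT3 and C/EBP family factors are the usual regulators of its genes. In the brain, Lcn2 is known as a product of activated glia, and S100a8 with its partner S100a9 as an alarmin of myeloid cells.

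The promoters of 4 members are shown because these genes were measured well and differ below in when and with which drug they moved. They are from RefSeq on build GRCm38.p6, an older build than the GRCm39 of the deposited coordinates, and each is the 250 bases before the annotated start, 5′ to 3′ on the gene's strand. Capitals mark matches, on either strand, to GGGNNNNNCC (an NF-kB form) or TTNNGCAA (a C/EBP form), and TTCNNNGAA (a STAT form) was searched as well. The Lcn2 window lies at chr2:32387740-32387989 (minus strand), Saa3 at chr7:46715677-46715926 (minus strand), S100a8 at chr3:90668821-90669070 (plus strand) and Slpi at chr2:164356508-164356757 (minus strand).
Lcn2: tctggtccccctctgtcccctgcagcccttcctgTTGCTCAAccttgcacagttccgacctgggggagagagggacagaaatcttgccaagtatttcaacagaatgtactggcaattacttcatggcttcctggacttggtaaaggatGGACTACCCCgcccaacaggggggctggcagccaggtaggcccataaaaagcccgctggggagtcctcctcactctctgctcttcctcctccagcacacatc
Saa3: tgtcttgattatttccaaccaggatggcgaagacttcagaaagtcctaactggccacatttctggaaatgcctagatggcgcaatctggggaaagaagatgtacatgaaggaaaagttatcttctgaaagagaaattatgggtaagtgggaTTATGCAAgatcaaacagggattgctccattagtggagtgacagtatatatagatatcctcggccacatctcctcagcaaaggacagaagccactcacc
S100a8: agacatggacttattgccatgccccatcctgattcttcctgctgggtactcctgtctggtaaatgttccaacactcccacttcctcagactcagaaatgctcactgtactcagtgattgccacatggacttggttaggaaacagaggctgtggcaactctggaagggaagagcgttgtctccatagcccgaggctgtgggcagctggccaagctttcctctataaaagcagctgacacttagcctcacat
Slpi: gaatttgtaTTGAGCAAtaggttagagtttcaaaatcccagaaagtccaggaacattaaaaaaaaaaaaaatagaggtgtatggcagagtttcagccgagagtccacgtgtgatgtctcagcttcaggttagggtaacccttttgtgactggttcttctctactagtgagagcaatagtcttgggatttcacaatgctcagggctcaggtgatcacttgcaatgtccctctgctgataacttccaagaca

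Promoter entries were found for 6 of the 7 members, each searched from 250 bases before to 50 bases after the start. The C/EBP form was present in 5 of the 6 (Lcn2, Saa3, S100a9, Slpi and Ltf), and in 10.8% of all 32851 promoter windows of the same length. It lay 216 to 209 bases before the start in Lcn2, 99 to 92 in Saa3 and 241 to 234 in Slpi. Lcn2, 102 to 93 bases before its start, and Ltf held the NF-kB form, which 50.8% of all windows hold. In Ltf, matches to that form overlapped one another between 65 and 51 bases before the start, and its C/EBP match stood at 75 to 68. The STAT form, present in 8.3% of windows, was in 0 of the 6, and S100a8 held no match to any of the 3. A match is a run of letters and does not show that a factor binds there.

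**Figure D1:**
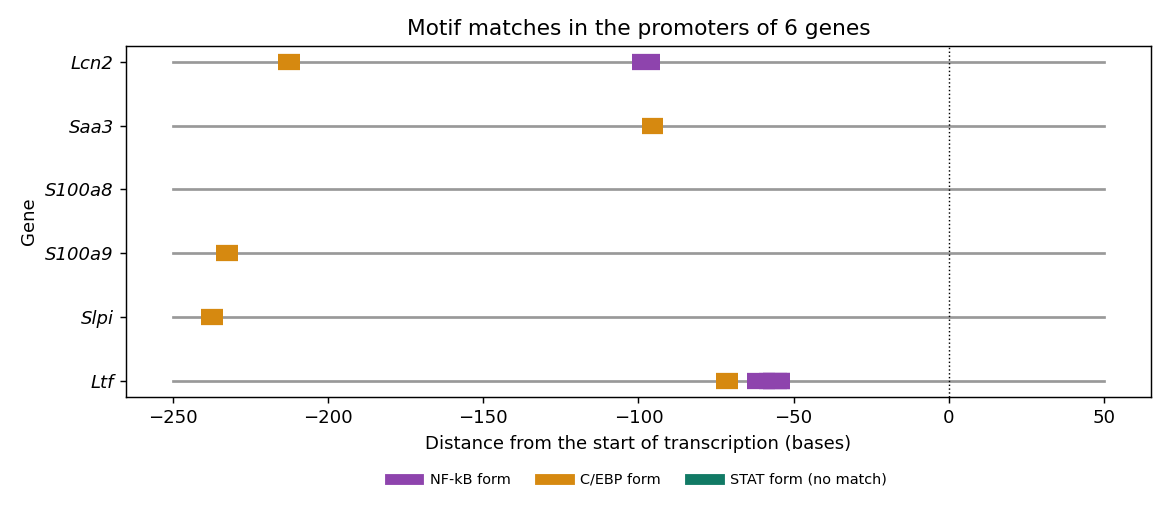
Matches to the NF-kB form and the C/EBP form in the promoter windows of the 6 members with an entry. The horizontal axis is the distance from the annotated start in bases, each line is 1 gene, and marks show matches on either strand. Lcn2 and Ltf carry both forms, Saa3, S100a9 and Slpi the C/EBP form, and the S100a8 line is empty.

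S100a9 and Ltf were close to absent. S100a9 (ENSMUSG00000056071, GRCm39 chr3:90599939-90603028), which encodes the partner that binds S100a8 in calprotectin, had 7 reads in all, found in 4 of the 36 libraries. They were 3 reads in DMSO at 4 h replicate 4, 2 in LPS with MMF at 4 h replicate 3, and 1 each in replicates 2 and 3 of LPS with DMF at 24 h. No library had more than 3 reads, the number a count of 0 leaves possible, so differences between groups were not detectable for S100a9 at this depth. Its row appears in 14 of the 30 deposited tables. Ltf (ENSMUSG00000032496, chr9:110848339-110871835), which encodes the iron-binding lactoferrin, had 26 reads over 16 of 36 libraries, at most 4 in a library, and is listed in 29 of 30 tables. Neither passed the low-value filter in any comparison.

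The other 5 had reads in 36 of 36 libraries. Levels below are normalized counts, which are reads divided by a size factor computed over the 36 libraries. Lcn2 (ENSMUSG00000026822, chr2:32274645-32278264) encodes lipocalin 2, which captures the iron carriers that bacteria secrete. It was low without LPS, at 9.03, 62.3 and 14.1 in DMSO at 4 h, 10.1, 53.3 and 20.2 in EtOH at 4 h, 27.4, 38.5 and 33.7 in DMSO at 24 h, and 14.9, 21.9 and 21.8 in EtOH at 24 h. With LPS at 4 h the libraries had 225, 575 and 201, with LPS and CBD 294, 681 and 337, with LPS and MMF 257, 349 and 241, and with LPS and DMF 57.8, 87.6 and 35.7. At 4 h the DMF libraries were below every other library with LPS, and they overlapped the vehicle libraries. At 24 h it was at 3689.7, 6309.9 and 5461 with LPS, 5212, 6581 and 7634 with LPS and DMF, 4197, 7604 and 6639.7 with LPS and MMF, and 22222, 30048 and 32499.9 with LPS and CBD. The 3 CBD libraries at 24 h were the highest of the 36 and overlapped no other group, while the other 3 LPS groups at 24 h overlapped one another.

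Hp (ENSMUSG00000031722, chr8:110301760-110305804) encodes haptoglobin, which binds free hemoglobin. It was already present without LPS, at 1238, 2056 and 1367 in DMSO and 1294, 2450.4 and 1724 in EtOH at 4 h, and at 1019, 1740.1 and 1521 in DMSO and 1167, 1633 and 1096 in EtOH at 24 h. At 4 h it was at 2426, 3529.8 and 2835 with LPS, 2531, 3017 and 2720.5 with LPS and CBD, 2167, 2385 and 1986 with LPS and MMF, and 1200.1, 1747 and 1211 with LPS and DMF. Its highest group was LPS at 24 h, with 5590.2, 8769 and 7288. At 24 h with a drug and LPS it was at 3184, 6337 and 4734 for MMF, 2326, 5527 and 2046 for CBD, and 1759, 1915 and 1476 for DMF. Hp with LPS and DMF lay within the range of the vehicle libraries over both times, 1019 to 2450.4. With CBD at 24 h, replicate 2 was high while replicates 1 and 3 lay close together.

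S100a8 (ENSMUSG00000056054, chr3:90576285-90577342) encodes a small calcium-binding protein. With its partner S100a9 that protein forms calprotectin, which binds zinc and manganese. S100a8 was low at 4 h, at 27.1, 21.5 and 22.7 in DMSO, 27.3, 31.6 and 25.0 in EtOH, 41.1, 40.1 and 38.2 with LPS, 56.7, 53.5 and 34.7 with LPS and DMF, 40.1, 38.7 and 44.6 with LPS and MMF, and 34.3, 35.1 and 30.2 with LPS and CBD. Vehicle libraries at 24 h were at 30.6 or less. With LPS at 24 h it reached 101, 228 and 156, with MMF 127, 261 and 142, with CBD 106, 96.6 and 90.2, and with DMF 669.7, 1548 and 1121. Each DMF library at 24 h was above every other library, and the MMF libraries overlapped those with LPS alone. In the same 3 DMF libraries the partner gene S100a9 had 0, 1 and 1 reads.

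Saa3 (ENSMUSG00000040026, chr7:46361422-46365124) encodes the serum amyloid A protein made by macrophages and other cells outside the liver. How reads shared with its relatives Saa1 and Saa2 were counted is not stated. The vehicle groups ranged from 1892 to 6225 at 4 h and from 2072 to 4561 at 24 h. With LPS it was at 9413, 22786 and 9852 at 4 h and at 28152, 58432 and 35606 at 24 h. With LPS and DMF it was at 6684, 8746 and 2843 at 4 h and at 16814, 27768 and 20535 at 24 h, so the DMF libraries lay below those with LPS alone at each time. MMF (10739, 15834 and 10709 at 4 h, 22235, 58397 and 32863 at 24 h) and CBD (10788, 18637 and 10242 at 4 h, 27939, 56146 and 35290.4 at 24 h) overlapped LPS alone at both times.

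Slpi (ENSMUSG00000017002, chr2:164195990-164231015) encodes secretory leukocyte peptidase inhibitor, which blocks neutrophil serine proteases. Vehicle libraries ranged from 1805 to 2875 over both times. With LPS it was at 4888, 6096 and 4116 at 4 h and at 6283, 10813 and 7451 at 24 h. With LPS and DMF it was at 8558, 9114 and 6132 at 4 h and at 8912, 15106 and 12970.5 at 24 h. DMF libraries were higher than those with LPS alone at 4 h without overlap, while at 24 h the groups overlapped. MMF (5076 to 5742 at 4 h, 7287 to 16385 at 24 h) and CBD (4395 to 5590.5 at 4 h, 6694 to 11873 at 24 h) overlapped LPS alone at both times.

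**Figure D2:**
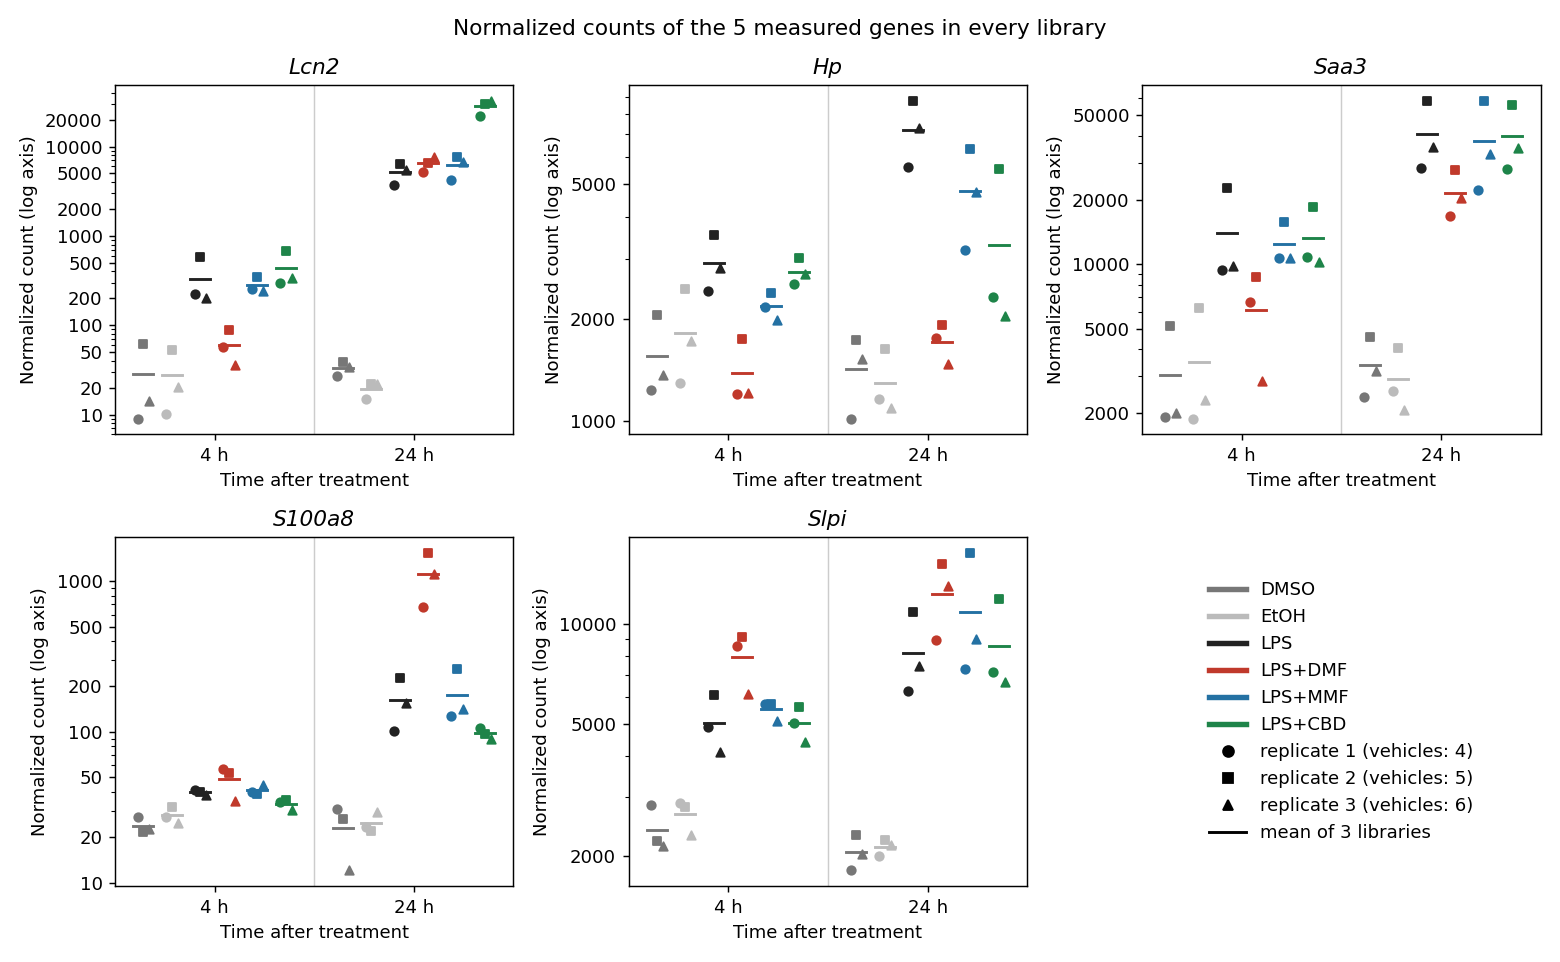
Normalized counts of Lcn2, Hp, Saa3, S100a8 and Slpi in the 36 libraries, 1 panel a gene, on a log axis. Points are libraries and short lines are group means (n = 3), with the 4 h and 24 h groups side by side. Lcn2 was highest with LPS and CBD at 24 h, S100a8 with LPS and DMF at 24 h, and Hp with LPS alone at 24 h.

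Levels of different genes can be compared only per length, here as normalized counts per kilobase of exon. In DMSO at 24 h the mean level per kilobase was 1734 for Slpi, 1265 for Saa3, 839 for Hp, 30.6 for S100a8 and 12.7 for Lcn2. With LPS at 24 h it was 15278 for Saa3, 6934 for Slpi, 4242 for Hp, 1965 for Lcn2 and 215 for S100a8. With LPS and CBD at 24 h Lcn2 reached 10773 per kilobase, and with LPS and DMF S100a8 reached 1478. By this length Saa3 and Slpi were the most abundant with LPS alone at 24 h, and Lcn2 had the lowest level of the 5 in DMSO.

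The order of the 12 group means differed by gene. For Lcn2 neighbouring groups did not overlap at 3 places, between CBD and DMF at 24 h, between LPS alone at 24 h and CBD at 4 h, and between MMF and DMF at 4 h. All other Lcn2 neighbours overlapped in their libraries. Gaps for S100a8 lay between DMF and MMF at 24 h, between CBD at 24 h and DMF at 4 h, and between LPS alone and CBD at 4 h. The last of these rests on few reads, 36 to 39 a library with LPS alone and 28 to 34 with CBD, where counting error is not small. For Hp the only gap in the order was between CBD and MMF at 4 h, and for Saa3 between MMF and DMF at 4 h. Slpi had gaps between DMF and MMF at 4 h and between CBD and EtOH at 4 h. Of all genes tested, 39.3% had no overlap between DMF and MMF at 24 h, 29.6% between DMF and MMF at 4 h, and 10.2% between CBD and LPS alone at 4 h. For the other gaps this share is not given. All of these are descriptions of ranked means and are not read as traits of these genes.

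Early induction by LPS was asked with the 4 h libraries, which the choice of genes did not use. Lcn2, Saa3, Slpi and Hp rose with LPS against DMSO at 4 h, where 14.1% of all genes tested passed, by limma's moderated test on log2(normalized count + 1) with Benjamini-Hochberg adjustment over all genes. Lcn2 went from a mean of 28.5 ± 29.4 (SD, n = 3) to 334 ± 209, a rise of 3.80 on the log2 scale (SE 0.653, limma adjusted p = 0.00671). The log2 fold change was 2.24 for Saa3 (adjusted p = 0.0106), 1.06 for Slpi (adjusted p = 0.00297) and 0.93 for Hp (adjusted p = 0.0169). S100a8 did not pass, at 0.72 (95% interval 0.23 to 1.20, adjusted p = 0.0566). Its LPS libraries did not overlap those in DMSO, which held for 35.7% of all genes tested. S100a8 passed with a pseudocount of 8 (adjusted p = 0.0488, range over the alternatives 0.0488 to 0.174). Hp lost its call without LPS replicate 3 (adjusted p = 0.0553) or DMSO replicate 4 (0.0550) or 6 (0.0794), and Saa3 without DMSO replicate 6 (0.0556). Over all alternatives the adjusted p ran from 4.67e-05 to 0.0794 for Hp and from 2.41e-08 to 0.0556 for Saa3.

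Against EtOH at 4 h, where 10.2% of genes passed, 3 of the 5 rose with the same LPS libraries. The log2 fold change was 3.67 for Lcn2 (adjusted p = 0.00652), 2.09 for Saa3 (adjusted p = 0.0269) and 0.91 for Slpi (adjusted p = 0.00635). Hp, at 0.72 (95% interval 0.21 to 1.23, adjusted p = 0.0826), and S100a8, at 0.50 (0.05 to 0.96, adjusted p = 0.161), did not pass. Leaving out EtOH replicate 5 gave Hp a call (adjusted p = 0.0154, range over the alternatives 0.000578 to 0.225). The Saa3 call was lost without LPS replicate 3 (0.0635), EtOH replicate 4 (0.108) or EtOH replicate 6 (0.110) and with DESeq2 (0.0502), with a range of 1.90e-08 to 0.110 over the alternatives.

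At 24 h the same contrasts were among those used to choose the genes and are given as values. Mean Lcn2 with LPS was 155-fold that in DMSO and 264-fold that in EtOH. On the log2 scale of limma, LPS against DMSO at 24 h was 7.22 for Lcn2, 3.59 for Saa3, 2.79 for S100a8, 2.36 for Hp and 1.98 for Slpi. The same difference against EtOH was 7.98, 3.81, 2.60, 2.48 and 1.92. S100a8 thus stood behind Slpi at 4 h and ahead of it at 24 h in these folds.

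Levels with LPS and MMF were set against DMSO at 24 h, whose libraries were used for the choice of Lcn2, and 22.4% of all genes tested passed. Lcn2 stood 7.47 higher on the log2 scale (SE 0.203), as a value. Saa3 was higher by 3.44 (limma adjusted p = 8.03e-05), S100a8 by 2.92 (0.000405), Slpi by 2.35 (0.000155) and Hp by 1.73 (0.000881), so 4 of the 4 genes tested here passed. With LPS and CBD against EtOH at 24 h, where 50.5% of genes passed, Lcn2 stood 10.44 higher (SE 0.173), as a value. Saa3 was higher by 3.78 (4.79e-06), Slpi by 1.97 (2.25e-05), S100a8 by 1.95 (3.74e-05) and Hp by 1.22 (0.00936) by limma.

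With DMF on top of LPS at 4 h, Lcn2 and Hp were lower and Slpi was higher than with LPS alone. Of all genes tested, 11.1% passed. Lcn2 had a mean of 60.4 ± 26.0 (SD, n = 3) with DMF against 334 ± 209, which is 18.1% of the level with LPS alone (log2 fold change -2.37, SE 0.422, limma adjusted p = 0.00730). Hp was at 47.3% of the level with LPS alone (log2 fold change -1.09, SE 0.177, adjusted p = 0.00469). Slpi was 1.58-fold higher (log2 fold change 0.65, adjusted p = 0.0470). Lcn2 and Hp kept their calls in 14 of 14 alternatives each. The Slpi call was lost without DMF replicate 1 (0.123) or 2 (0.107) and without LPS replicate 1 (0.114) or 3 (0.180), and with no filter on low values (0.0623), in a range of 0.00170 to 0.180 over the alternatives.

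Saa3 and S100a8 did not pass at 4 h. The log2 fold change of Saa3 was -1.23 (95% interval -2.20 to -0.25, adjusted p = 0.113). Its DMF and LPS libraries did not overlap, which held for 30.1% of all genes tested. Saa3 passed without DMF replicate 2 (adjusted p = 0.0446) and without replicate 2 of either group (0.0334). Replicate numbers pair these libraries, and with the number as a block 15.1% of all genes passed and Saa3 was called (adjusted p = 0.00687, range over the alternatives 0.00687 to 0.318). S100a8 was at 0.24 (-0.31 to 0.78, adjusted p = 0.608).

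At 24 h, DMF against LPS alone was used to choose the genes. Mean S100a8 was 6.88-fold that with LPS alone, and Hp was at 23.8% of it. Summed neutrophil markers were at 1387 to 1711 normalized counts with DMF and 1167 to 1256 with LPS alone. At 24 h that sum was also above LPS alone with MMF (1390 to 1492) and in DMSO (1318 to 1350), while EtOH (1170 to 1424) overlapped. Summed neuronal markers, of which Map2 alone had a mean of 10, were at 66.03 to 141 with DMF and 231.1 to 339.1 with LPS alone. They were also below LPS alone with MMF (183.8 to 210.8), in DMSO (119.1 to 138.5) and in EtOH (167.1 to 195). The part of either sum in these values was not tested. The log2 differences were 2.77 for S100a8, 0.59 for Slpi, 0.35 for Lcn2, -0.87 for Saa3 and -2.06 for Hp. Lcn2, at 18.1% of LPS alone at 4 h, was thus at a ratio above 1 at 24 h, with overlapping libraries, while Hp was low with DMF at each time.

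DMF and MMF differ by a single methyl ester and were given at the same dose and from the same vehicle, so they were compared with each other, as 1 pair of compounds at 2 times over the 5 genes, with p-values adjusted over all genes at each time. At 4 h, where 8.34% of genes passed, Lcn2 and Hp were lower with DMF than with MMF. The log2 difference was -2.28 for Lcn2 (SE 0.291, limma adjusted p = 0.00214) and -0.68 for Hp (SE 0.148, adjusted p = 0.0202). Saa3 (-1.16, 95% interval -1.91 to -0.40, adjusted p = 0.0642), Slpi (0.50, 0.18 to 0.81, adjusted p = 0.0571) and S100a8 (0.19, -0.36 to 0.74, adjusted p = 0.684) did not pass. Slpi passed with edgeR (0.0484), DESeq2 (0.00674), size factors set over all libraries (0.0463) and without DMF replicate 3 (0.0150), in a range of 0.00540 to 0.196 over the alternatives. Saa3 passed without DMF replicate 2 (0.00242), in a range of 0.00234 to 0.182. The Hp call was lost in 5 of the 6 comparisons that leave out 1 library, at adjusted p between 0.0555 and 0.0952, and with all 36 libraries in 1 fit (0.0912), in a range of 0.000241 to 0.0952 over the alternatives.

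At 24 h 21.5% of all genes passed between DMF and MMF. The DMF libraries are those on which S100a8 and Hp were chosen, so their differences are values and not tests. S100a8 had a mean of 1113 ± 439 (SD, n = 3) with DMF and 177 ± 73.5 with MMF, a 6.30-fold difference (log2 2.64, SE 0.312). Hp with DMF was at 36.1% of the level with MMF (log2 -1.42, SE 0.204). Lcn2 differed at 24 h by 0.10 (95% interval -0.35 to 0.55, limma adjusted p = 0.759). Slpi was at 0.23 (-0.37 to 0.84, adjusted p = 0.571) and Saa3 at -0.72 (-1.38 to -0.06, adjusted p = 0.110). Numbers pair these libraries, and with the replicate block 39.8% of all genes passed. Saa3 (adjusted p = 4.96e-05, range over the alternatives 4.96e-05 to 0.277) and Slpi (0.0434, range 0.0415 to 0.983) were then called.

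MMF was also set against LPS alone. At 4 h, where 0.122% of genes passed, 0 of the 5 members passed with limma, edgeR or DESeq2, while the unadjusted p was below 0.05 for 1 of them. The log2 differences were -0.41 for Hp (95% interval -0.70 to -0.12, adjusted p = 0.532), -0.08 for Lcn2 (-0.84 to 0.68), -0.07 for Saa3 (-0.74 to 0.61), 0.05 for S100a8 (-0.40 to 0.50) and 0.15 for Slpi (-0.14 to 0.44). The Hp libraries with MMF at 4 h did not overlap those with LPS alone, which held for 13.5% of all genes tested. Hp was called by limma with the replicate block (adjusted p = 0.0287, range over the alternatives 0.0287 to 0.999). By the rule used here the numbers did not pair these 4 h libraries. At 24 h the percentage of all genes called was 0, with 440 of 11584 below an unadjusted p of 0.05, 0 called by edgeR and 17 by DESeq2. The LPS libraries were used for the choice of Lcn2, Hp and S100a8, and their values were -0.63 for Hp (-1.14 to -0.13), 0.25 for Lcn2 (-0.27 to 0.76) and 0.13 for S100a8 (-0.58 to 0.83). Slpi, at 0.36 (-0.26 to 0.98), and Saa3, at -0.15 (-0.90 to 0.60), did not pass with limma, edgeR or DESeq2. The 24 h numbers pair the libraries, and with the replicate block 1.78% of genes passed, among them Slpi (adjusted p = 0.000598), whose adjusted p was above 0.99 in other alternatives.

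Of all groups, Lcn2 was highest with LPS and CBD at 24 h. Against LPS with MMF, which shares no library with the contrasts used for the choice, 48.3% of all genes tested passed, and Lcn2 was higher (28257 ± 5368 against 6147 ± 1756, SD, n = 3, 4.60-fold; log2 2.23, SE 0.214, limma adjusted p = 6.34e-05) and S100a8 lower (97.8 ± 8.17 against 177 ± 73.5; log2 -0.77, SE 0.243, adjusted p = 0.0266). The 2 compounds were at different doses and in different vehicles, so drug, dose and vehicle cannot be told apart here. Hp (-0.62, adjusted p = 0.184), Slpi (-0.30, adjusted p = 0.425) and Saa3 (0.13, adjusted p = 0.775) did not pass. The S100a8 call was lost without CBD replicate 3 (0.0708), and leaving out CBD replicate 2 gave Hp a call (log2 -1.06, adjusted p = 0.00255). Over the alternatives the adjusted p of S100a8 ran from 0.00369 to 0.0708 and that of Hp from 0.00155 to 0.475. With the replicate block 56.7% of all genes passed, and Hp (adjusted p = 0.00632) and Slpi (0.0147, range 0.0147 to 0.910) were called, which makes 4 of 5.

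Against LPS alone at 24 h, where 48.7% of genes passed, the LPS libraries are those used for the choice of Lcn2, Hp and S100a8, whose differences are given as values. Lcn2 was 5.48-fold that with LPS alone (log2 2.48, SE 0.196), Hp was at 45.7% (log2 -1.25, SE 0.321) and S100a8 differed by -0.64 (95% interval -1.20 to -0.08). Saa3 (-0.02, -0.67 to 0.63) and Slpi (0.06, -0.46 to 0.58) did not pass, also not with the replicate block, under which 56.7% of genes passed. The Lcn2 call against LPS with MMF held in 14 of 14 alternatives. The summed neutrophil markers in the CBD libraries at 24 h were at 518 to 581 normalized counts, against 1167 to 1256 with LPS alone and 1390 to 1492 with MMF. The list did not go one way, since of its 6 genes tested against LPS alone Cxcr2 (-3.86), Prtn3 (-1.78) and Mmp8 (-1.48) were lower and Ctsg (3.38) was higher. Their part in these results was not tested.

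With CBD against LPS alone at 4 h, where 0.00875% of genes passed, 0 of the 5 members passed with limma, edgeR or DESeq2, and 0 had an unadjusted p below 0.05. Lcn2 differed by 0.47 on the log2 scale (95% interval -0.50 to 1.43, limma adjusted p = 0.994), Saa3 by -0.00 (-0.79 to 0.79), Hp by -0.07 (-0.36 to 0.23), S100a8 by -0.25 (-0.69 to 0.19) and Slpi by 0.01 (-0.32 to 0.34). The change in the CBD effect from 4 h to 24 h was fitted as an interaction over 12 libraries, where 32% of all genes tested passed. It was 2.01 for Lcn2 (SE 0.519), -1.18 for Hp (SE 0.404) and -0.39 for S100a8, as values, since the LPS libraries at 24 h that enter it were used for their choice. Slpi (0.05) and Saa3 (-0.01) did not pass.

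**Figure D3:**
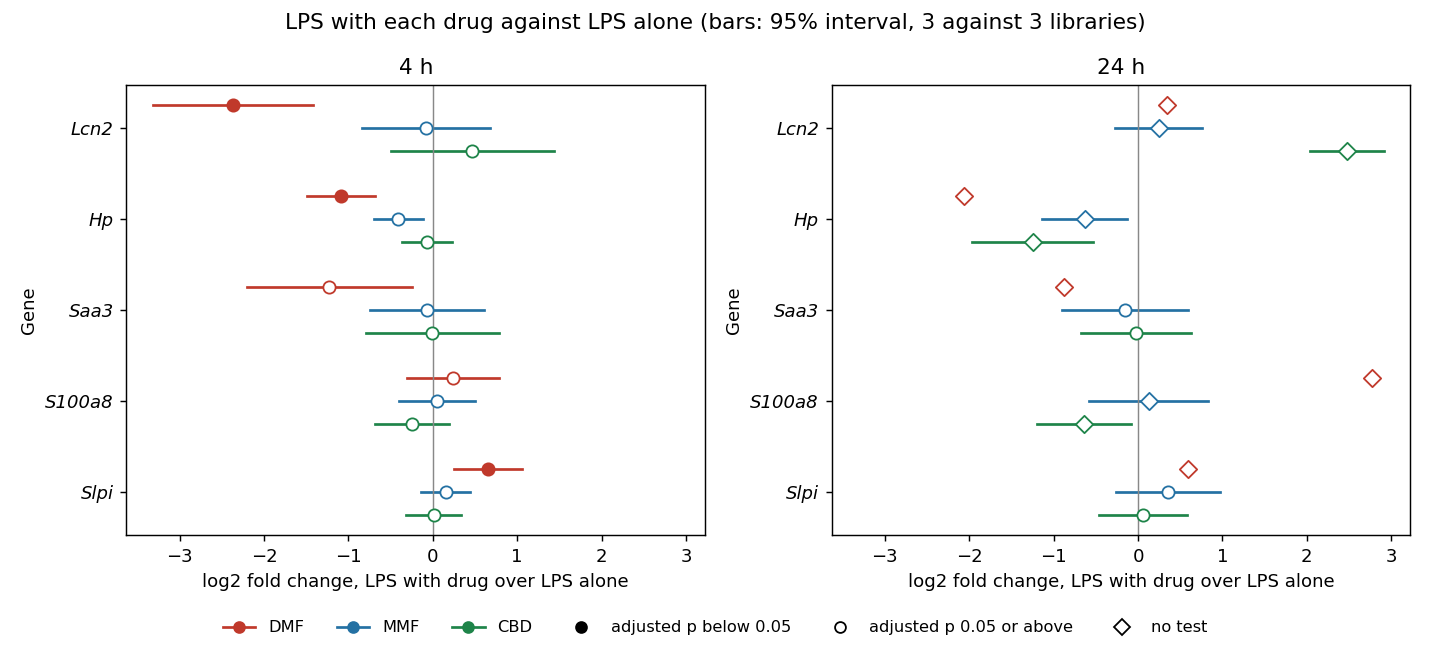
Log2 fold change of the 5 measured members with LPS and each drug over LPS alone, at 4 h and 24 h, with 95% intervals from limma as bars (3 libraries against 3). Filled circles passed an adjusted p of 0.05, open circles did not, and diamonds at 24 h mark values given with no test (the DMF ones have no interval). Lcn2 was at -2.37 with DMF at 4 h and at 2.48 with CBD at 24 h, and S100a8 was at 2.77 with DMF at 24 h.

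Without LPS, 1 member passed between 4 h and 24 h, Slpi in EtOH. In DMSO, where 51.6% of all genes passed, Hp, Saa3, S100a8 and Slpi were not called by limma, edgeR or DESeq2. Of these, 0 had an unadjusted p below 0.05 by limma. Lcn2, whose choice used the DMSO libraries at 24 h, stood 0.65 higher at 24 h on the log2 scale (SE 0.548), as a value. Leaving out DMSO replicate 5 at 4 h, however, gave a call for Saa3 (log2 0.71, adjusted p = 0.00568), and Lcn2 was then at 1.43. In EtOH, where 58.6% passed, Slpi fell by 0.34 on the log2 scale (limma adjusted p = 0.00734), which was not called with all 36 libraries in 1 fit (0.248, range over the alternatives 0.00131 to 0.248).

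The rise over time under LPS was largest for Lcn2 in each of the 4 LPS groups. With MMF, whose libraries were not used for the choice, 49.5% of all genes passed and all 5 members rose from 4 h to 24 h, on the log2 scale by 4.41 for Lcn2 (SE 0.193, limma adjusted p = 5.57e-07), 2.00 for S100a8 (0.000101), 1.51 for Saa3 (0.000860), 1.07 for Hp (0.000730) and 0.89 for Slpi (0.00554). With CBD, where 63.2% passed, Lcn2 rose by 6.08 (adjusted p = 3.49e-07), Saa3 by 1.57 (0.000610), S100a8 by 1.52 (5.00e-05) and Slpi by 0.72 (0.00743), while Hp was at 0.10 (95% interval -0.57 to 0.77, adjusted p = 0.779). With LPS alone, where 48.9% passed, the values were 4.07 for Lcn2, 1.91 for S100a8 and 1.29 for Hp, and Saa3 rose by 1.59 (adjusted p = 0.00369) and Slpi by 0.68 (0.0155). With DMF, where 58.8% passed, the values were 4.44 for S100a8 and 0.32 for Hp (-0.02 to 0.65), while Lcn2 rose by 6.79 (5.86e-07), Saa3 by 1.94 (0.000676) and Slpi by 0.62 (0.0184). As folds of the means, Lcn2 at 24 h was 15.4-fold its 4 h level with LPS alone, 21.8-fold with MMF, 64.6-fold with CBD and 107-fold with DMF, and S100a8 23.0-fold with DMF. No test of a difference between these rises is given.

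Some calls over time rested on single libraries. The Slpi rise with LPS alone was not called without LPS replicate 2 at 24 h (adjusted p = 0.0510) or LPS replicate 3 at 4 h (0.0628). With DMF the Slpi rise was not called without DMF replicate 2 (0.0785) or 3 (0.0642) at 24 h or DMF replicate 3 at 4 h (0.0804). Without CBD replicate 2 at 24 h, Hp fell over time with CBD, by 0.34 on the log2 scale (adjusted p = 0.00996).

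The vehicles were compared with each other as a background. At 4 h the percentage of all genes called was 0, with 1051 of 11458 at an unadjusted p below 0.05, 0 called by edgeR and 79 by DESeq2. None of the 5 members passed by any of these tools and 0 had an unadjusted p below 0.05. With the replicate block 7.65% of all genes passed, and Hp, at -0.21, was called (adjusted p = 0.0259, range over the alternatives 0.0259 to 0.999). At 24 h 0.00854% of genes passed, and Hp, Saa3, S100a8 and Slpi did not with limma, edgeR or DESeq2. Lcn2, whose choice used these libraries, is given as a value (log2 0.74, 95% interval 0.14 to 1.34). Its DMSO libraries were above the EtOH libraries without overlap. Of all genes tested, 8.9% had no overlap in this comparison.

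Libraries with the middle replicate number were high in the same genes. Among the 3 libraries of each group, the one numbered 2 (with LPS) or 5 (vehicles) had the highest Hp and the highest Saa3 in 12 of 12 groups. It had the highest Lcn2 in 10 of 12, the highest Slpi in 9 and the highest S100a8 in 5. The median deviation of that library from its group mean, on the log2 scale, was 0.57 for Saa3, 0.34 for Lcn2, 0.34 for Hp, 0.20 for Slpi and 0.13 for S100a8. The labels do not say what the number marks. In DMSO at 4 h, for example, the library numbered 5 had 62.3 normalized counts of Lcn2 and the others 9.03 and 14.1.

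**Figure D4:**
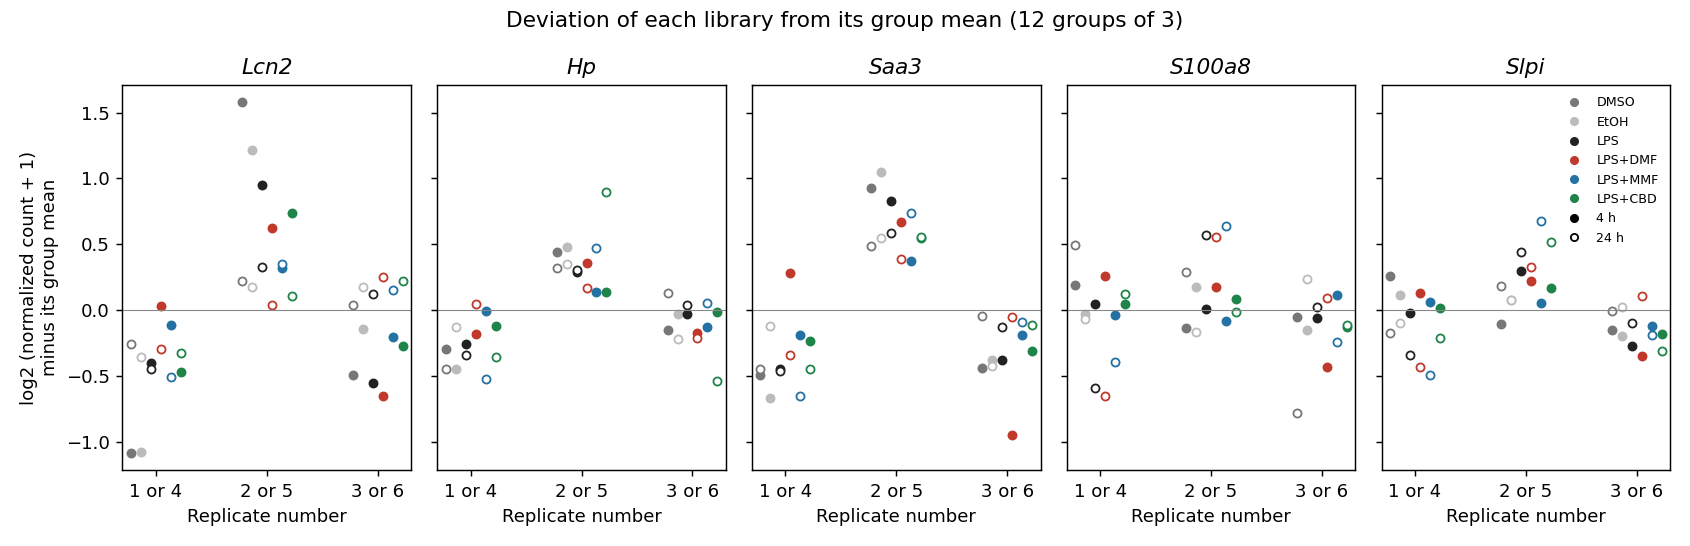
Deviation of each library from its group mean on the log2 scale, for the 5 measured members, by replicate number (1, 2 and 3 with LPS, 4, 5 and 6 in the vehicles). Each point is 1 of the 36 libraries. The libraries numbered 2 and 5 sit above 0 for Saa3 and Hp in 12 of 12 groups.

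Other genes of the acute-phase pathway were read from 4 lists, beside the 14.1% of all genes that passed with LPS against DMSO at 4 h. Of 25 other acute-phase genes 5 passed the low-value filter with LPS against DMSO at 4 h, and 3 of them rose, the interleukin 1 antagonist Il1rn (log2 2.63), the copper carrier ceruloplasmin Cp (1.46) and the LPS co-receptor Cd14 (0.99). The median of the 5 was 0.99, beside -0.00 over all genes. Of 22 inducers and regulators 14 rose and 1 fell, with a median of 0.90, led by the cytokines Il1b (6.58), Csf3 (5.87) and Il6 (3.01) and the NF-kB cofactor Nfkbiz (2.85). Of 11 tested receptors and partners of the member proteins 3 rose, Fpr1 (1.74), Tlr2 (1.52) and Mmp9 (1.04), and Lrp1 fell (-0.32). Of 7 other S100 and whey acidic protein genes, the relatives of S100a8 and Slpi, 1 rose (Wfdc17, 1.82).

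With DMF against LPS at 4 h, where 11.1% of all genes passed, 0 of 5 other acute-phase genes rose and 2 fell, Cp (-1.79) and Cd14 (-0.46). Among the 22 inducers and regulators 2 rose and 7 fell, with a median of -0.58 beside 0.01 over all genes. Those with the largest falls were Il1b (-3.09), the acute-phase transcription factor Cebpd (-1.67), the STAT3 feedback inhibitor Socs3 (-1.59) and Bcl3 (-1.32). Il6 (-1.70, adjusted p = 0.145) and Csf3 (-1.11, adjusted p = 0.101) did not pass by limma. Of 11 receptors and partners 2 fell, Tlr2 (-1.32) and Mmp9 (-1.19), which encodes a protease that lipocalin 2 binds. Wfdc17 was the 1 of 8 S100 and whey acidic protein genes to fall (-1.32).

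With CBD against MMF at 24 h 48.3% of all genes passed, so calls in these lists are read against that share. Here 2 of 5 other acute-phase genes were higher, Cp (1.64) and Il1rn (1.61), and the median of the 5 was 0.0748, beside -0.00 over all genes. Of the inducers and regulators 9 were higher and 5 lower (median 0.26). Il1b was lower (-3.57) while Il6 (limma adjusted p = 0.000135), Csf3r (log2 1.30) and Osm (1.10) were higher. Among 13 receptors and partners 3 were higher and 4 lower (median -0.31), led by the protease genes Ctsg (3.16) and Prtn3 (-1.77), Itln1 (-2.22) and Bdh2 (1.49), an enzyme of mammalian siderophore synthesis. The 8 S100 and whey acidic protein genes split as well, with Wfdc17 (2.00) and Wfdc18 (1.26) the 2 higher and S100a4 (-1.20) and S100a6 (-0.89) among the 4 lower (median -0.41).

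With MMF and LPS against DMSO at 24 h, where 22.4% of all genes passed, 4 of 5 other acute-phase genes were higher, Cp (2.53), the complement component C3 (1.55), Il1rn (1.33) and Cd14 (0.80). Of the inducers 14 of 22 were higher and 0 lower, with a median of 0.79 beside 0.00, led by Csf3 (6.97), Il1b (6.13), Il6 (4.74) and Cebpd (2.28). Of 10 receptors and partners 4 were higher and 2 lower, among them Fpr1 (2.78), Mmp9 (2.53), Cd36 (1.17) and Prtn3 (-0.80). Wfdc17 (3.81), S100a11 (0.50) and S100a1 (0.39) were the 3 of 8 S100 and whey acidic protein genes that were higher.

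The genes most like each member over the 12 group means, on the log2 scale and among 10557 candidates, are given as a description. All groups share 1 cell line and a common size-factor scaling. Nearest to Lcn2 were Stard5 (Pearson r = 0.990), Ceacam19 (0.990) and Rilpl2 (0.985). Nearest to Saa3 were Skil (0.973), Ceacam19 (0.970) and Stx6 (0.969), and to Slpi Il36g (0.966), Slc11a1 (0.954) and Pigl (0.953). S100a8 was nearest to Pag1 (0.961), Stab1 (0.948) and Mmp8 (0.945), the last a collagenase gene on the neutrophil marker list. Hp had the weakest neighbours, Dtwd1 (0.935), Kcnj2 (0.911) and Tmem176b (0.896). Between members, Lcn2 and Saa3 were the most alike (0.968) and Hp and S100a8 the least (0.387).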

How the data were processed

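Polyadenylated RNA of BV-2 cells was sequenced from paired ends in 36 libraries. Per the study's methods, the authors checked reads with FastQC 0.12.1, trimmed them with cutadapt 4.4 and Trimmomatic 0.39, aligned them to GRCm39 with HISAT2 2.2.1, counted them per gene with HTSeq 2.0.3 and normalized them with DESeq2 1.40.2 in R 4.3.1; the strand setting of the counting is not given in the sources used here. The deposited unit is a signal, the normalized count per gene and library, in 30 tables of 6 libraries each, with size factors set within each table. Columns with the authors' own log2 fold changes, standard errors, p-values and mean levels were not used, and 0 columns belonged to no sample of the series. Values step by what 1 read is worth, so whole reads were recovered: 100% of 2695078 values came within 0.01 read of a whole number, and 2446332 values read in more than 1 table differed in 0 cases. Libraries held 14110424 to 26676607 reads. Counting error is small for Hp, Saa3 and Slpi, and for Lcn2 with LPS at 24 h. It is not small where reads are few, and is largest near the floor of 3 reads. Lcn2 had 9 reads in DMSO at 4 h replicate 4, and S100a8 had 10 in DMSO at 24 h replicate 6. S100a8 was also low in the 4 h libraries with LPS, for example 36 reads in LPS replicate 3. No libraries of a group were alike to within sampling noise.

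Levels are recovered reads divided by median-of-ratios size factors over the 36 libraries. Each comparison was fitted on its 6 deposited columns with limma 3.58.1 (trended moderation) in R 4.3.3 on log2(normalized count + 1), for genes with at least 10 normalized counts in 3 libraries, with Benjamini-Hochberg adjustment over all genes tested and a threshold of 0.05. A fold on that scale understates the change of low genes. The interaction used the 36-library normalization. An exact permutation test of 3 against 3 libraries cannot go below p = 0.1 and was not used. The fits were also run on simulated independent counts with no replicate effect. That setting is simpler than these libraries, so no conclusion about the fits here is drawn from it. Alternatives were a pseudocount of 8, no filter, edgeR 4.0.16 and DESeq2 1.42.0 on recovered reads, other size factors, 1 fit of all 36 libraries, a replicate block, leaving out each library and, chosen after seeing the data, leaving out the libraries numbered 2 and 5.

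Replicate numbers were taken to pair libraries where every same-numbered pair's deviations correlated above 0.1. This held for DMF, for CBD and, at 24 h, for MMF against LPS (lowest r 0.127), for CBD and DMF against MMF at 24 h, for time with LPS alone and with MMF, and between vehicles, but not for MMF against LPS at 4 h (lowest r 0.0836), DMF against MMF at 4 h (0.0601) or the other time comparisons. Vehicle and LPS libraries share no number.

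The 7 members and the gene lists were chosen with earlier results of these data known. Named genes are the members, up to 4 of each list with the largest change among those called (Il6 and Csf3 with DMF were added after their values were seen), and the 3 genes most correlated with each member. Promoters are RefSeq windows on GRCm38.p6.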

Additional observations from a re-analysis of the deposited data

Results flagged for a closer look

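For Lcn2 and Hp, the change in the effect of CBD on top of LPS from 4 h to 24 h is given as a value, from 1 fit over 12 libraries. For Lcn2 the log2 effect of CBD was 2.01 larger at 24 h (SE 0.519), from 0.47 at 4 h to 2.48 at 24 h. For Hp the difference was -1.18 (SE 0.404), from -0.07 to -1.25. It ran from -1.63 to -0.91 in the 12 fits that leave out 1 library. Both genes were chosen on the LPS libraries at 24 h that serve as the reference here, so these values are no independent test of the difference.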

How the results depend on the processing

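The 49 called differences of single members kept their direction in 371 of 371 alternative values and their call in 362. In the 306 values that leave out 1 library the direction held in each and the call in 275. These counts, and those of members called below, include the differences that reuse libraries on which a gene was chosen. Counts without those differences are not given, so these are no measure of how stable the tested calls are. Among the 56 differences not called, 32 of 437 alternative values gained a call and 12 changed sign, as did 57 of the 354 that leave out 1 library. Low levels limit Lcn2 and S100a8 in the vehicles and S100a8 at 4 h, and leave S100a9 and Ltf without a test. The cause of the changes was not tested.

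With the replicate block the number of the 5 members called became 1 for MMF against LPS at 4 h, where 1.57% of all genes were called, 4 for DMF against MMF at 4 h (15.3% of all genes), 4 for DMF against LPS at 4 h, 3 for CBD against LPS at 24 h, 5 for time with DMF, 4 for CBD against MMF at 24 h, 3 for MMF against LPS at 24 h, 4 for DMF against MMF at 24 h, 2 for time in EtOH (60.9% of all genes) and 1 for DMSO against EtOH at 4 h. With 36 libraries in 1 fit it was 1 for DMF against MMF at 4 h and 0 for time in EtOH. For the CBD effect at 24 h against 4 h it was 1 with no filter, 1 with edgeR and 1 with DESeq2. Without the libraries numbered 2 and 5 it was 1 for MMF against LPS at 24 h, 3 for time in DMSO and 2 for time in EtOH. Leaving out 1 library at a time gave 2 to 4 members for LPS against DMSO at 4 h, 1 to 3 for DMF against MMF at 4 h, 1 to 3 for CBD against MMF at 24 h, 0 to 2 for time in DMSO, 1 to 2 for time in EtOH and 1 to 2 for the CBD effect at 24 h against 4 h. With the replicate block 15.1% of all genes were called for DMF against LPS at 4 h and 7.65% for DMSO against EtOH at 4 h. At 24 h it was 56.7% for CBD against LPS, 56.7% for CBD against MMF, 1.78% for MMF against LPS and 39.8% for DMF against MMF. Shares of all genes called are not given for every one of these fits. In the main fits they were 14.1% for LPS against DMSO and 8.34% for DMF against MMF at 4 h. They were 48.3% for CBD against MMF at 24 h and 32% for the CBD effect. Over time they were 51.6% in DMSO, 58.6% in EtOH and 58.8% with DMF. The counts are therefore not read as results about the members.

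Signs changed only for members that were not called. In DMSO against EtOH at 4 h Lcn2 became 0.0295 with edgeR and 0.0402 with DESeq2, and in the CBD effect at 24 h against 4 h Saa3 became 0.0505 with edgeR and 0.0518 with DESeq2. Without the libraries numbered 2 and 5 the log2 value was 0.23 for Lcn2 and 0.15 for Saa3 in LPS with MMF against LPS at 4 h, 0.00747 for Hp and 0.13 for Saa3 in LPS with CBD against LPS at 4 h, 0.29 for Lcn2 and 0.11 for Saa3 over time in EtOH, -0.28 for Hp over time with CBD (adjusted p = 0.0234), and -0.0512 for Slpi in the CBD effect at 24 h against 4 h.

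Leaving out 1 library, log2 values ran as follows. In LPS with MMF against LPS at 4 h they ran from -0.29 to 0.35 for Saa3, -0.36 to 0.39 for Lcn2 and -0.00534 to 0.0859 for S100a8. In LPS with CBD against LPS at 4 h they ran from -0.28 to 0.41 for Saa3, -0.13 to 0.16 for Slpi and -0.19 to 0.0766 for Hp. In LPS with CBD against LPS with MMF at 24 h the range was -0.19 to 0.50 for Saa3 and -0.56 to 0.0350 for Slpi, and in LPS with CBD against LPS at 24 h it was -0.30 to 0.27 for Saa3 and -0.20 to 0.27 for Slpi. In LPS with MMF against LPS at 24 h it was -0.52 to 0.17 for Saa3 and -0.19 to 0.41 for S100a8, and in LPS with DMF against LPS with MMF at 24 h -0.15 to 0.27 for Lcn2 and -0.0110 to 0.57 for Slpi. For 24 h against 4 h with DMSO it was -0.30 to 0.0742 for Hp, -0.41 to 0.23 for S100a8 and -0.00288 to 0.71 for Saa3, with EtOH -0.47 to 0.38 for Saa3 and -0.76 to 0.38 for Lcn2, and with LPS and CBD -0.34 to 0.37 for Hp. In DMSO against EtOH at 4 h it was -0.92 to 0.48 for Lcn2, -0.61 to 0.38 for Saa3 and -0.43 to 0.0315 for Hp, and at 24 h -0.16 to 0.0166 for Slpi, -0.0432 to 0.34 for Hp, -0.0194 to 0.50 for Saa3 and -0.45 to 0.19 for S100a8. In the CBD effect at 24 h against 4 h it was -0.43 to 0.28 for Saa3 and -0.21 to 0.27 for Slpi.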
